A study of Mus musculus with 6 samples.

Results

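A set of 39 genes known chiefly from neurons was followed in cultures of mouse astrocytes, the star-shaped support cells of the brain. The set was chosen by name, with earlier results of these data known. Any non-control probe whose RefSeq accession maps to a listed mouse symbol belongs to it. Of the 39 genes, 38 had a probe (Ina, which encodes the intermediate filament alpha-internexin, had none), and together they had 56 of the 41174 non-control probes of the array. A probe entered the test where its signal stood well above background throughout the 3 arrays of either group. This left 34 of the 39 genes among 19741 genes and transcripts tested.

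The arrays were one-colour Agilent mouse expression arrays, 3 per group. Both groups held purchased primary astrocytes of strain C57BL/6 from embryonic day 18 cortex, transfected with RNAiMax 3 weeks after plating and collected 48 h later. The miR-29 group received a mixture of precursors, with 1 part miR-29a, 2 parts miR-29b and 1 part miR-29c, at 80 nM, and the control group a negative control precursor at 80 nM. Transfection reached more than 90% of cells, according to the labels. The 3 arrays of a group are extraction replicates, and no label ties them to separate cultures. The p-values therefore reflect only how much these samples vary, which may be technical variation.

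Neurons are set apart from glia by a tubulin- and neurofilament-rich cytoskeleton, by RNA-binding proteins that direct splicing and mRNA stability, and by the machinery that stores and releases transmitters. Many of these genes are held low by the repressor REST in cells that are not neurons. MicroRNAs of the miR-29 family are abundant in mature brain cells, and each recognises messenger RNAs mainly through its seed, bases 2 to 8. The 3 mature mouse sequences are shown because this family was the agent added; the labels name the transfected precursors as human ones. They are RefSeq entries of GRCm38.p6, written 5′ to 3′, and capitals mark the seed, which all 3 share.
mmu-miR-29a-3p: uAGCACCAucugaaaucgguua
mmu-miR-29b-3p: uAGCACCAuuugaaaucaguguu
mmu-miR-29c-3p: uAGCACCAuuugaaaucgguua

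Array quality was even. On each array 61.9% to 66.8% of probes stood well above background, and the 75th percentile of signal was 500 to 663. The correlation across genes was 0.994 to 0.998 between arrays of a group and 0.975 to 0.985 between groups. Controls 2 and 3 were on slide 2, and control 1 shared slide 1 with all miR-29 arrays. Levels below are log2 of the signal minus the 75th percentile of the same array, so they compare arrays for 1 probe and not probes with each other. A difference is the miR-29 mean minus the control mean. It rose or fell where limma gave a Benjamini-Hochberg adjusted p under 0.05 over all 19741.

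Transcripts of 34 of the 39 neuronal genes were readable in at least 1 group. Counted by probe, 30 of the 56 were detected well above background on all 6 arrays, 16 on some and 10 on none. Of the 40 probes kept, 6 were kept through the miR-29 arrays alone and 4 through the control arrays alone. The probe of Neurod1, a basic helix-loop-helix factor of differentiating neurons, was well above background on 0 arrays. Snap25, the SNARE protein of the presynaptic membrane, was well above background on 1 miR-29 and 1 control array. Sst, which encodes the peptide somatostatin, was detected on 1 control array, and Gad1, a glutamate decarboxylase that makes GABA, on 1 miR-29 array. By the weaker flag of the scanner files (positive and significant), Snap25, Sst and 1 Gad1 probe passed on all 6 arrays and Neurod1 on 2. The other Gad1 probe passed on 3 miR-29 and 2 control arrays. These 4 genes and Ina were not tested. Since these are bulk cultures, fewer cells of a type and less RNA per cell cannot be told apart.

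**Figure D1:**
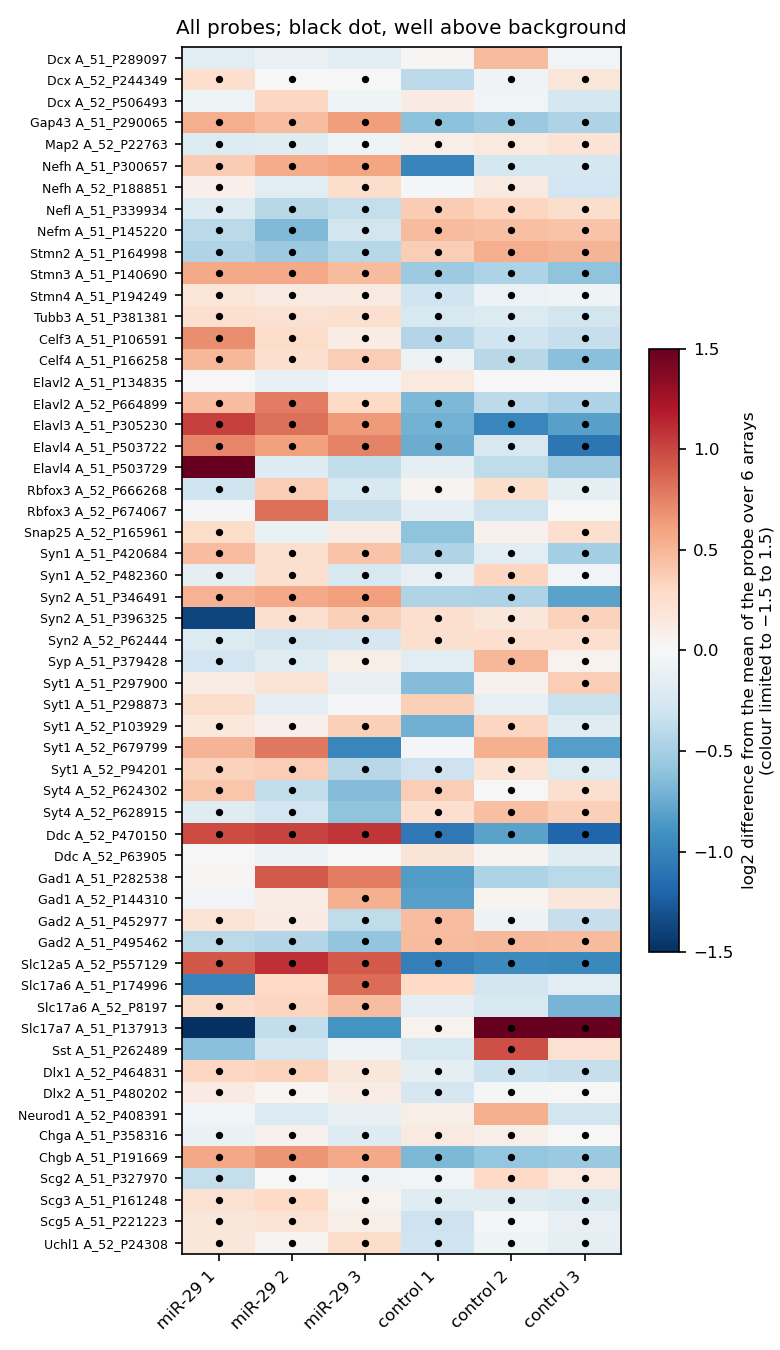
Every probe of the neuronal genes (one line each) on the 6 arrays (columns), coloured by its log2 difference from the mean of the probe over the 6 arrays, with a black dot where it was well above background. The 30 probes with 6 dots were measured in both groups, while lines without dots, such as Neurod1, were not well above background on any array.

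The genes did not move as 1 block. Of the 34 tested, 18 rose, 7 fell and 9 did not pass the threshold. Over all genes and transcripts 58.1% passed, 35.3% as higher and 22.7% as lower, against 52.9% higher and 20.6% lower among the neuronal genes. Rises of at least 2-fold were found in 9 of the 34 (26.5%), where the share over all tested was 3.29%, and 1 gene (2.94%) fell by at least 2-fold, where that share was 3.64%. The genes were chosen with earlier results of these data known, so these shares describe the list and do not test it. Nefh and Slc17a6 among the 18 rises, with Nefh also among the 9, and Slc17a7, which is the 2-fold fall, were each kept through the group in which they are high, with arrays of the other group near background. The 2 groups did not overlap for 26 of the 34 (76.5%; 66.2% over all tested). Their median log2 difference was 0.31, beside 0.07 over all tested. Within slide 1, where 3 miR-29 arrays face 1 control array, these medians were 0.43 and 0.10, and all 25 genes past the threshold had the same sign there. A fit with slide as a block gives these same within-slide differences, since slide 2 holds only control arrays. Its values therefore rest on control 1 alone.

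The balance depended on how arrays were scaled. Scaling each array to its 6 detected types of spike-in RNA lowered every difference by the same amount and moved the median of all genes and transcripts from 0.07 to −0.18. With that scaling 15.3% of all tested rose and 38.5% fell, and of the 34 neuronal genes 14 rose, 9 fell and the median was 0.06. At least 2-fold rises then numbered 4 (1.46% over all tested) and at least 2-fold falls 4 (6.89%). The 2-fold counts also depended on the normexp background correction described below. Of the 9 rises first counted, only Slc12a5 stayed at least 2-fold after normexp (log2 difference 1.58). Stmn3 was at 0.90, Ddc at 0.73, Chgb at 0.72, Elavl4 at 0.56 and Elavl3 at 0.46. Gap43 was at 0.44, Nefh at 0.27 and Elavl2 at 0.26. The 2-fold fall, Slc17a7, was at −0.67. These genes all still passed the threshold. The share over all tested after normexp is not given here.

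**Figure D2:**
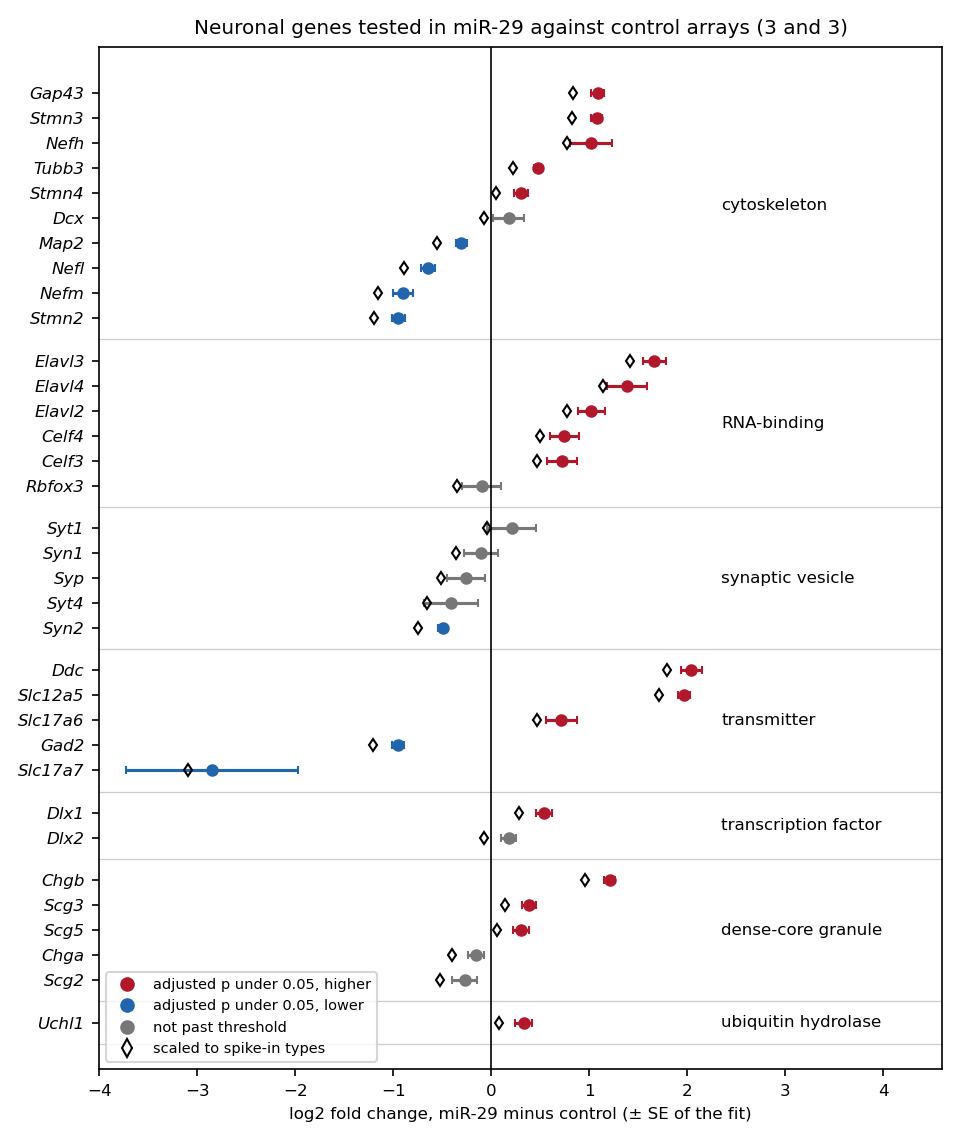
Log2 difference (miR-29 minus control) of each tested neuronal gene with the SE of the fit, by role, in red where higher, blue where lower and grey where not past the threshold; diamonds give the value after scaling to spike-in types. Rises lead among RNA-binding genes, while the cytoskeleton genes spread from −0.95 to 1.09.

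The cytoskeleton genes split. Of 10 tested, 5 rose (50%, beside 35.3% over all tested) and 4 fell (40%, beside 22.7%). The median of 0.24 turned to −0.01 with spike-in scaling (4 higher and 4 lower). Gap43, a membrane protein of growth cones, read −2.71, −2.80 and −2.63 in miR-29 and −3.87, −3.81 and −3.71 in control arrays. All miR-29 arrays lay above all control arrays, and Gap43 rose by 1.09 (SE 0.0666, adjusted p = 9.44e-05, 2.12-fold; 1.15 within slide 1, 0.44 after the normexp background correction described below). Stmn3, a stathmin that binds tubulin dimers, read 0.03, 0.04 and −0.06 against −1.09, −1.01 and −1.14. The groups were again apart, and Stmn3 rose by 1.08 (SE 0.0574, adjusted p = 6.64e-05, 2.11-fold; 1.09 within slide 1).

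Neurofilament subunits went both ways. Nefh, the heavy subunit, read −4.63, −4.45 and −4.42 in miR-29 and −6.00, −5.28 and −5.27 in control arrays, where control 1 was not well above background. It rose by 1.02 (SE 0.21, adjusted p = 0.00767; 1.5 within slide 1, 0.27 after normexp). With control 1 set at the lowest well-measured signal of that array, the difference was 0.91, or 1.87-fold. Its other probe was well above background on too few arrays to be tested. Nefm, the medium subunit, went the other way, with −2.15, −2.40 and −2.02 against −1.27, −1.28 and −1.31, a fall of 0.90 (SE 0.101, adjusted p = 0.000715). The light subunit gene Nefl, at −3.44, −3.66 and −3.60 against −2.87, −2.92 and −2.98, fell by 0.64 (SE 0.0726, adjusted p = 0.00073; −0.32 after normexp). For both genes every miR-29 array lay below every control array.

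Within the stathmin family the direction also differed. Stmn2, a growth-cone stathmin, read 1.01, 0.92 and 1.04 in miR-29 and 1.84, 2.01 and 1.97 in control arrays. The 2 groups did not overlap, and Stmn2 fell by 0.95 (SE 0.065, adjusted p = 0.000131), opposite to Stmn3. Stmn4 rose by 0.30 (SE 0.0725, adjusted p = 0.0133), but with spike-in scaling its difference was 0.05 (adjusted p = 0.662). Tubb3, the neuronal class III beta-tubulin, rose by 0.48 (SE 0.0444, adjusted p = 0.000359; 0.23 with spike-in scaling). Map2, a microtubule-associated protein of dendrites, fell by 0.30 (SE 0.0594, adjusted p = 0.00624; −0.55 with spike-in scaling). Dcx, the doublecortin of migrating young neurons, differed by 0.18 (SE 0.156, adjusted p = 0.358) on a probe kept through the miR-29 arrays alone. Within slide 1 the Dcx difference was 0.48, against control 1 alone, which at −5.85 was not well above background. The other 2 Dcx probes were well above background on 0 arrays.

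**Figure D3:**
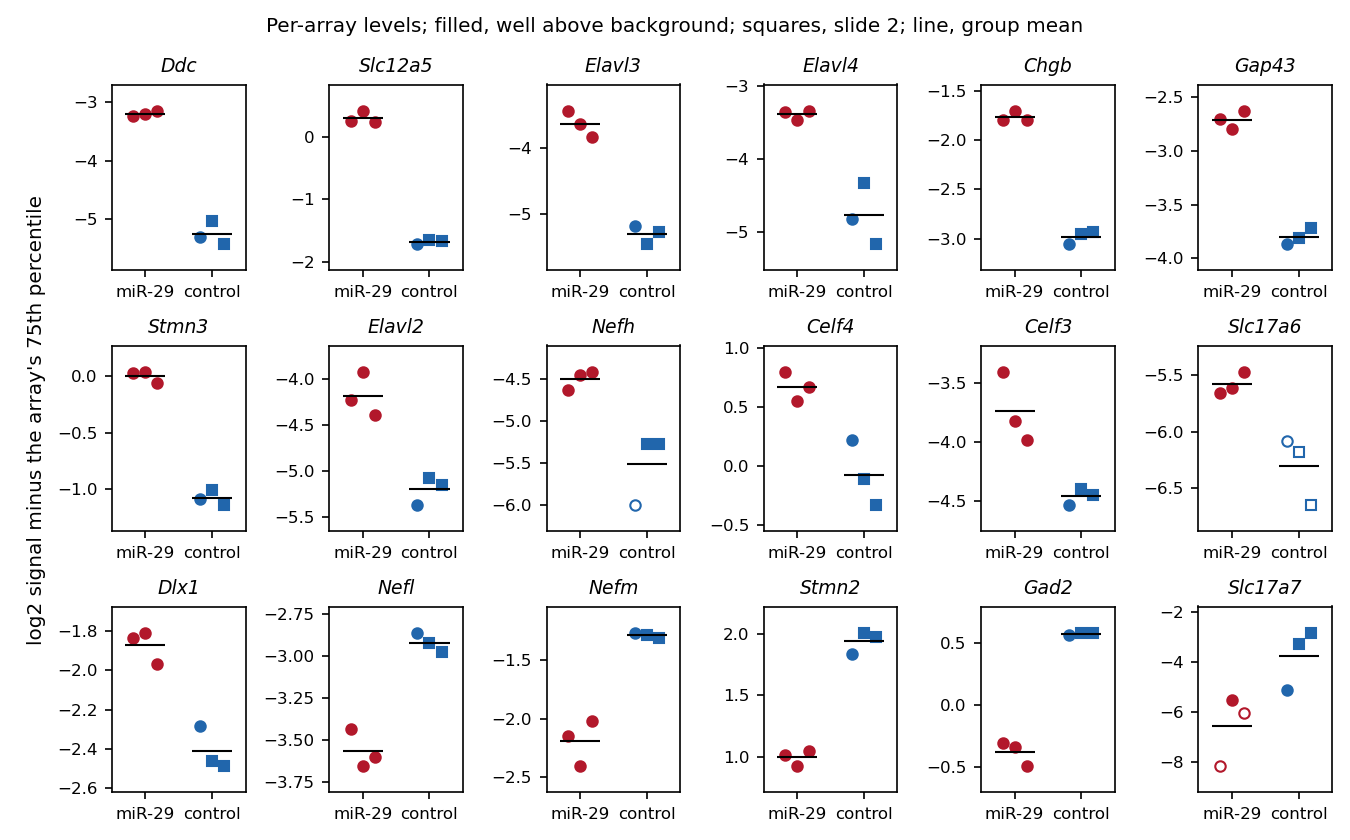
Level of 18 neuronal genes on each array (log2 signal minus the 75th percentile of the array; circles slide 1, squares slide 2, open symbols not well above background, lines group means). In each panel the miR-29 and control points do not overlap, and Nefl, Nefm, Stmn2, Gad2 and Slc17a7 are the panels in which control is higher.

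Of 6 neuronal RNA-binding genes tested, 5 rose (83.3%, beside 35.3% over all tested) and 0 fell, with a median of 0.88. The same count rose with spike-in scaling (median 0.63). Elavl2, Elavl3 and Elavl4 encode Hu proteins that bind AU-rich messenger RNAs in neurons. Elavl3 read −3.44, −3.63 and −3.82 in miR-29 and −5.17, −5.45 and −5.27 in control arrays, clear of each other. It rose 3.17-fold, by 1.67 (SE 0.12, adjusted p = 0.000151; 1.54 within slide 1). Elavl4 read −3.35, −3.46 and −3.34 against −4.83, −4.32 and −5.16, with more spread among controls. Its rise was 1.39 (SE 0.207, adjusted p = 0.00215, 2.61-fold). Elavl2, at −4.23, −3.92 and −4.38 against −5.36, −5.07 and −5.15, rose by 1.02 (SE 0.138, adjusted p = 0.00146, 2.03-fold). A further probe each of Elavl2 and Elavl4 was well above background on 0 arrays. All 3 were dim, and after normexp background correction, which added 50 to every signal, their differences were 0.26, 0.46 and 0.56 for Elavl2, Elavl3 and Elavl4, still past the threshold.

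Celf3 and Celf4 encode regulators of splicing and translation. Celf4 read 0.80, 0.55 and 0.67 in miR-29 and 0.22, −0.11 and −0.33 in control arrays. It rose by 0.74 (SE 0.149, adjusted p = 0.00682). Control 1, on the same slide as the miR-29 arrays, was the highest control, and the difference within slide 1 was 0.45. Celf3 read −3.41, −3.82 and −3.98 against −4.53, −4.40 and −4.45 and rose by 0.72 (SE 0.15, adjusted p = 0.00787; 0.31 after normexp). Its groups did not overlap. Rbfox3, whose product is the nuclear marker NeuN, differed by −0.10 (SE 0.203, adjusted p = 0.695), with a second probe well above background on 0 arrays.

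No synaptic vesicle gene rose when each was read by its brightest probe. Of 5 tested, 1 fell (20%, beside 22.7% over all tested) and 4 did not pass. Their median was −0.26, but 0.04 within slide 1. Syp, the vesicle protein synaptophysin, differed by −0.26 (SE 0.19, adjusted p = 0.282), and Syt1, the calcium sensor of fast release, by 0.21 (SE 0.251, adjusted p = 0.5; −0.04 with spike-in scaling). Within slide 1 the Syp difference was 0.04.

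The synapsins, which coat vesicles and tether them to each other, gave different calls with different probes. Syn2 by its brightest probe (A_52_P62444) read −2.08, −2.15 and −2.13 in miR-29 and −1.63, −1.61 and −1.62 in control arrays, and fell by 0.50 (SE 0.0437, adjusted p = 0.000302). With the mean of its kept probes the difference was 0.04 (adjusted p = 0.828). A dimmer Syn2 probe (A_51_P346491), with −4.20, −4.15 and −4.10 against −5.17, −5.19 and −5.52, rose by 1.14 (SE 0.103, adjusted p = 0.000313). This probe was kept through the miR-29 arrays alone, with 1 control array well above background. When all kept probes were each tested, 35.3% of them rose and 22.7% fell. The last kept Syn2 probe (A_51_P396325) read −6.97, −5.35 and −5.23 against −5.34, −5.42 and −5.25. Its difference of −0.51 (SE 0.458, adjusted p = 0.364) rested on miR-29 replicate 1, and without that array it was 0.05.

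Syn1 by its brightest probe (A_52_P482360) read 6.66, 7.05 and 6.57 in miR-29 and 6.68, 7.13 and 6.77 in control arrays. These overlapped, with a difference of −0.10 (SE 0.17, adjusted p = 0.62; 0.07 within slide 1). Its dimmer probe (A_51_P420684) read −2.75, −2.99 and −2.80 against −3.68, −3.38 and −3.73, all miR-29 arrays above all control arrays, and rose by 0.75 (SE 0.113, adjusted p = 0.00213). In the reference table Timp1 lies within the span of Syn1 and Timp4 within that of Syn2. Both encode metalloproteinase inhibitors, and both were looked up after the synapsin values had been seen. Timp1 differed by −0.13 (SE 0.052, adjusted p = 0.0718), and Timp4 rose by 0.60 (SE 0.0897, adjusted p = 0.00215). Which transcript each synapsin probe reads was not tested.

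Syt4, an atypical synaptotagmin, differed by −0.41 with its brightest probe (SE 0.278, adjusted p = 0.246; −0.72 without miR-29 replicate 1, adjusted p = 0.0131). Its other probe (A_52_P628915) read −5.28, −5.38 and −5.70 in miR-29 and −4.84, −4.64 and −4.74 in control arrays. By that probe Syt4 fell by 0.72 (SE 0.12, adjusted p = 0.00329), but both Syt4 probes were kept through the control arrays alone, with 2 miR-29 arrays well above background. A second Syt1 probe, kept through the miR-29 arrays alone, differed by 0.39 (SE 0.256, adjusted p = 0.231; 0.65 without control replicate 2, adjusted p = 0.0335). Within slide 1 its difference was 0.92, against control 1 alone, which at −5.91 was not well above background. The other 3 Syt1 probes were not kept.

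**Figure D4:**
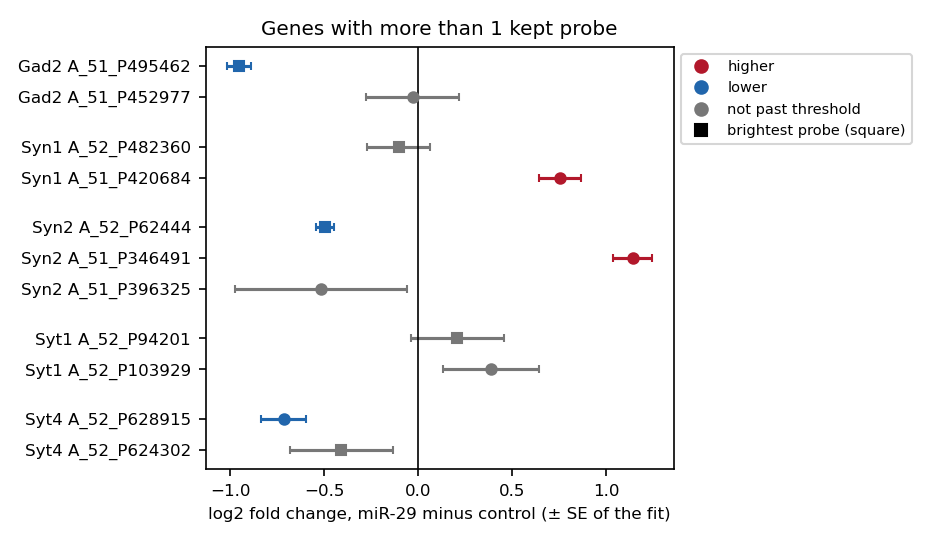
Log2 difference (miR-29 minus control, with the SE of the fit) for each kept probe of the 5 neuronal genes with several kept probes; squares mark the brightest probe of a gene. The brightest Syn2 probe fell while a dimmer one, kept through the miR-29 arrays alone, rose, and a Syn1 probe rose while the brightest one did not pass.

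All 5 transmitter genes tested passed, 3 higher and 2 lower, with a median of 0.72 (0.47 with spike-in scaling and the same counts). The shares of 60% higher and 40% lower compare with 35.3% and 22.7% over all tested. Ddc, the aromatic amino acid decarboxylase that makes dopamine and serotonin, read −3.24, −3.21 and −3.15 in miR-29 and −5.29, −5.02 and −5.42 in control arrays. The groups lay far apart relative to their spread. Ddc rose 4.12-fold, by 2.04 (SE 0.105, adjusted p = 6e-05), and by 0.73 after normexp. Its other probe was well above background on 0 arrays. Slc12a5, the potassium-chloride cotransporter that keeps chloride low in mature neurons, read 0.24, 0.41 and 0.23 against −1.71, −1.65 and −1.66. It rose 3.91-fold, by 1.97 (SE 0.0636, adjusted p = 2.84e-05; 2.00 within slide 1).

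Of the vesicular glutamate transporters, Slc17a6 was near background in both groups. Slc17a7 was dim on the slide 1 arrays and brighter on controls 2 and 3, the slide 2 arrays. Slc17a6 read −5.66, −5.62 and −5.48 in miR-29 and −6.08, −6.18 and −6.64 in control arrays, of which 0 were well above background. By this probe Slc17a6 was at least 1.18-fold higher in miR-29. That bound sets each control array at its own reading or at the lowest well-measured signal of the array, whichever is higher. The adjusted p was 0.00904, but 0.112 after normexp and 0.0872 with slide as a block. The other Slc17a6 probe was well above background on 1 miR-29 and 0 control arrays and was not tested. Its groups overlapped, with means of −6.1 in miR-29 and −6.2 in control arrays and a difference of −0.25 within slide 1. Slc17a7 read −8.16, −5.52 and −6.05 against −5.11, −3.26 and −2.83, with 1 miR-29 and 3 control arrays well above background. The fitted fall was 2.85 (SE 0.874, adjusted p = 0.0327), with a wide spread in both groups, on a probe kept through the control arrays alone. With the other 2 miR-29 arrays set at their lowest well-measured signal, it was −2.03. With slide as a block the difference was −1.47 (adjusted p = 0.293), and after normexp it was −0.67. Its adjusted p was 0.0704 with no filter on dim probes, 0.0656 without miR-29 replicate 1, 0.0582 without miR-29 replicate 3, 0.0893 without control replicate 2 and 0.0978 without control replicate 3.

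Gad2, the second glutamate decarboxylase, read −0.31, −0.34 and −0.49 in miR-29 and 0.57, 0.58 and 0.58 in control arrays by its brightest probe. All miR-29 arrays were lower, and Gad2 fell by 0.95 (SE 0.0623, adjusted p = 0.000111). Its other probe (A_51_P452977) read −2.59, −2.67 and −3.17 against −2.33, −2.87 and −3.15. Those groups overlapped, with a difference of −0.03 (SE 0.248, adjusted p = 0.927), and the mean of both probes fell by 0.49.

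Dlx1 and Dlx2 are homeobox genes of the interneuron lineage. Dlx1 read −1.83, −1.81 and −1.97 in miR-29 and −2.28, −2.46 and −2.48 in control arrays, with no overlap. It rose by 0.54 (SE 0.0774, adjusted p = 0.00186; 0.29 with spike-in scaling). Dlx2 differed by 0.18 (SE 0.0797, adjusted p = 0.101), by 0.34 within slide 1, against control 1 alone, and by −0.07 with spike-in scaling.

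Of 5 genes of dense-core granules, which store peptides and amines, 3 rose (60%, beside 35.3% over all tested) and 2 did not pass (median 0.31). With spike-in scaling 1 rose, 2 fell and the median was 0.06. Chgb, the granule matrix protein chromogranin B, read −1.79, −1.71 and −1.80 in miR-29 and −3.05, −2.96 and −2.93 in control arrays. The groups were well apart, and Chgb rose by 1.21 (SE 0.0562, adjusted p = 5.13e-05, 2.32-fold; 0.72 after normexp). Scg3, a granin that binds chromogranins to the granule membrane, rose by 0.39 (SE 0.0718, adjusted p = 0.00499; 0.14 with spike-in scaling, adjusted p = 0.157). Scg5, a chaperone of prohormone convertase 2, rose by 0.31 (SE 0.0829, adjusted p = 0.0211). That call was lost with spike-in scaling (0.06), with no filter on dim probes, without miR-29 replicate 1 (adjusted p = 0.0645) and without miR-29 replicate 2 (adjusted p = 0.0719). Chga, chromogranin A, differed by −0.15 (SE 0.0815, adjusted p = 0.152; −0.23 without miR-29 replicate 2, adjusted p = 0.0494). Scg2, which encodes secretogranin II, differed by −0.27 (SE 0.128, adjusted p = 0.118; −0.16 to −0.36 with 1 array left out). Both passed as lower with spike-in scaling (−0.40 and −0.52).

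Uchl1, a ubiquitin hydrolase abundant in neurons, rose by 0.33 (SE 0.0891, adjusted p = 0.0208). It did not pass with spike-in scaling (0.08), with no filter, with quantile normalization (0.26, adjusted p = 0.0628), without miR-29 replicate 1 (adjusted p = 0.0614) or without miR-29 replicate 3 (adjusted p = 0.0615). Of the 25 neuronal genes past the threshold, 18 kept direction and call in each of the 18 alternative settings in which they were tested (17 for Nefh).

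Genes of the repressor machinery itself were mixed. Of 23 tested, 12 rose and 7 fell (6 and 8 with spike-in scaling, where the median of 0.21 turned to −0.04). The shares of 52.2% higher and 30.4% lower compare with 35.3% and 22.7% over all tested. Rest differed by 0.30 (SE 0.148, adjusted p = 0.132), and the ranges of the 2 groups overlapped. Without control replicate 1 the difference was 0.42 (adjusted p = 0.0384), and within slide 1 it was 0.05. Its corepressor gene Rcor1 fell by 0.45 (SE 0.0616, adjusted p = 0.0016; −0.92 with its other probe, −0.68 with the mean of both and −0.70 with spike-in scaling), and the related Rcor2 rose by 1.12 (SE 0.0629, adjusted p = 7.5e-05). The small phosphatases Ctdspl and Ctdsp2, which act with REST, fell by 1.00 (SE 0.0616) and 0.74 (SE 0.0552). Hes5, a Notch-driven repressor of neurogenesis, rose by 1.60 (SE 0.18; 0.60 after normexp). Ptbp1, a splicing repressor of neuronal exons, rose by 0.20 (SE 0.051, adjusted p = 0.0162; −0.05 with spike-in scaling, and adjusted p from 0.0517 to 0.0645 without either of miR-29 replicates 1 and 3 or control replicates 2 and 3). That call was also lost with slide as a block, with quantile or median scaling, with no filter and with the mean of its probes. Ptbp2, its neuronal paralogue, differed by 0.09 (SE 0.0472, adjusted p = 0.166).

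Of 48 further synaptic and neuronal genes tested, 20 rose and 8 fell (10 and 13 with spike-in scaling, where the median of 0.17 turned to −0.08; 5 fell without miR-29 replicate 1). The shares of 41.7% higher and 16.7% lower compare with 35.3% and 22.7% over all tested. Mapt, the axonal microtubule protein tau, rose by 1.06 (SE 0.0923), as did its other 2 kept probes. Sv2a, a vesicle glycoprotein, and Camk2a, a synaptic kinase, each rose by 1.11 (SE 0.134 and 0.159). Camk2a was well above background on 1 control array, and with the other 2 set at the lowest well-measured signal where below it, the difference was 0.94. Normexp gave 0.58, 0.34 and 0.36 for Mapt, Sv2a and Camk2a. Dpysl3, a growth-cone protein of the collapsin response family, fell by 1.67 (SE 0.0705).

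Of 22 receptor and channel genes tested, 6 fell (27.3%, beside 22.7% over all tested) and 4 rose (18.2%, beside 35.3%). With spike-in scaling 10 fell and 2 rose. Scn2b, a sodium channel beta subunit, fell by 1.13 (SE 0.0473), and the sodium channel gene Scn8a rose by 0.95 (SE 0.129; 0.36 after normexp). Grin2b, an NMDA receptor subunit, fell by 1.33 (SE 0.463, adjusted p = 0.0491; −0.46 after normexp). The Grin2b call was lost with slide as a block (adjusted p = 0.264), with no filter, with another variance model, without miR-29 replicate 3 and without any 1 control array (adjusted p 0.0634 to 0.127), and the value was −0.80 without miR-29 replicate 1. Its other probe differed by −0.33 (adjusted p = 0.418).

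Of 9 tested genes of transmitter synthesis, transport and peptides, 3 fell and 2 rose (4 and 0 with spike-in scaling; 1 rose without miR-29 replicate 2 or 3 or control replicate 2 or 3). The shares of 33.3% lower and 22.2% higher compare with 22.7% and 35.3% over all tested. The opioid precursor Penk fell by 0.98 (SE 0.0549) and neuropeptide Y, Npy, by 0.50 (SE 0.0737; −0.29 after normexp). Tph2, the neuronal serotonin-synthesis enzyme, rose by 0.53 (SE 0.0963; 0.18 after normexp, adjusted p = 0.112). Of 7 genes of granule processing 2 fell (28.6%) and 1 rose (14.3%). Among them were the prohormone convertases Pcsk1 and Pcsk2, which fell by 0.35 (SE 0.0707; −0.07 after normexp; adjusted p = 0.0569 with slide as a block) and 0.46 (SE 0.0687). Without control replicate 1 the counts were 4 and 2. Cadps, which primes granules for release, rose by 0.29 (SE 0.073), but did not pass without control replicate 2 (adjusted p = 0.055), with spike-in scaling or with slide as a block.

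Of 19 neurogenic transcription factors tested, 9 rose (47.4%, beside 35.3% over all tested) and 4 fell (21.1%, beside 22.7%). With spike-in scaling 7 rose and 5 fell. Sox11, a SOX factor of newborn neurons, rose by 1.44 (SE 0.0774), and Bcl11a, a zinc-finger factor of cortical neurons, by 1.23 (SE 0.11; 0.59 after normexp). Pou3f2, a POU factor that is well above background on 0 control arrays, was at least 1.97-fold higher (adjusted p = 0.00683; 0.066 with slide as a block, 0.156 after normexp).

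**Figure D5:**
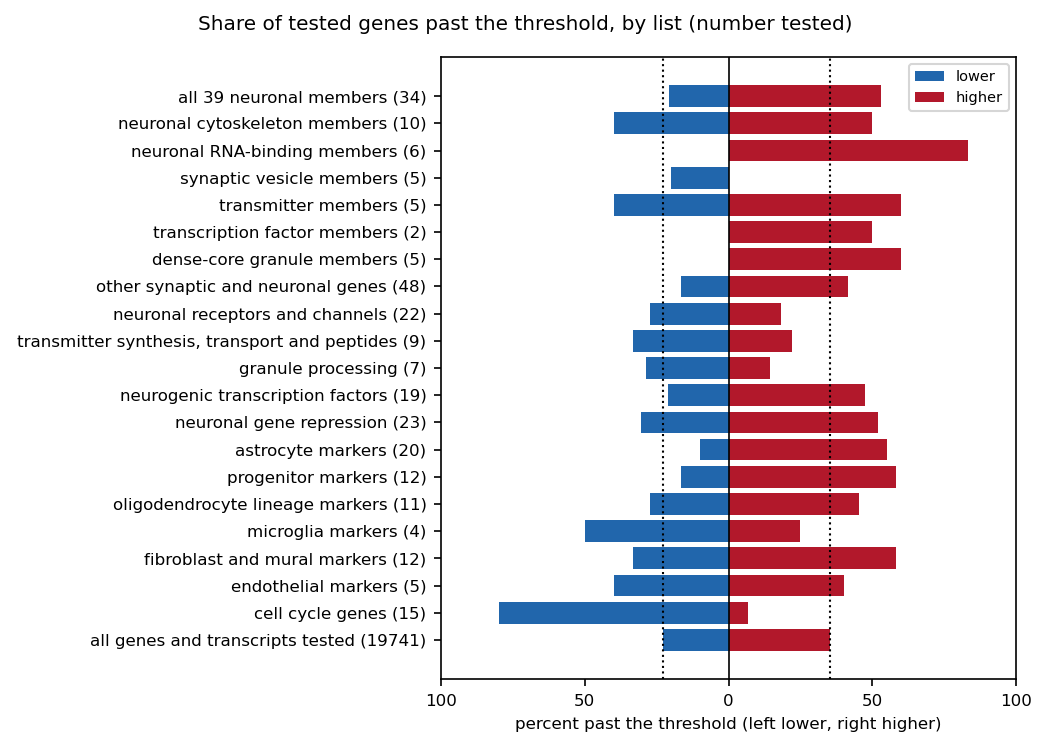
Share of the tested genes of each list that fell (blue, left) or rose (red, right), with the number tested in brackets; dotted lines mark the shares over all genes and transcripts tested, 22.7% lower and 35.3% higher. RNA-binding genes reach 83.3% higher and cell cycle genes 80% lower.

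Markers of the cell types a cortical culture can hold were read in the same arrays. Of 20 astrocyte markers tested, 11 rose (55%, beside 35.3% over all tested) and 2 fell (10%, beside 22.7%). With spike-in scaling 6 rose and 4 fell. Their mean level was 1.84 to 2.01 in miR-29 and 1.59 to 1.68 in control arrays. Gfap, the astrocyte filament protein, rose by 0.62 (SE 0.0774), Aldh1l1, a folate enzyme, by 0.74 (SE 0.0546) and the glutamate transporter Slc1a3 by 1.68 (SE 0.0881). Acsbg1 rose by 0.63 (SE 0.0606) and Fabp7, a lipid-binding protein, by 1.31 (SE 0.0437). With spike-in scaling Gfap rose by 0.37, Aldh1l1 by 0.49, Slc1a3 by 1.43, Acsbg1 by 0.38 and Fabp7 by 1.06. Slc1a3 and Fabp7 are also on the progenitor list below and count among its rises. The naming rule took neither of the 2 markers that fell. Aqp4, the water channel of astrocyte end-feet, differed by 0.16 (SE 0.121, adjusted p = 0.291; −0.06 within slide 1), and Gjb6 was well above background on 0 arrays. Of the 21 astrocyte markers listed, 20 were thus detected.

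Of 12 progenitor markers, 7 rose (58.3%, beside 35.3% over all tested) and 2 fell (16.7%, beside 22.7%). Their mean levels were 0.70 to 0.82 in miR-29 and 0.26 to 0.51 in control arrays. Oligodendrocyte lineage markers gave 5 higher (45.5%) and 3 lower (27.3%) of 11, with mean levels of −1.54 on each miR-29 array and −1.58 to −1.32 on the control arrays. Olig2, a lineage transcription factor, rose by 1.35 (SE 0.0772), and Cldn11, a claudin of myelin, fell by 1.49 (SE 0.0557). After normexp these were 0.88 and −0.89. The mature myelin gene Mog was well above background on 0 arrays. Without control replicate 1, the lower counts were 4 progenitor, 4 astrocyte and 6 oligodendrocyte lineage genes, and without miR-29 replicate 1 it was 1 astrocyte gene.

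Fibroblast and mural markers gave 7 higher (58.3%, beside 35.3% over all tested) and 4 lower (33.3%, beside 22.7%) of 12. Their mean levels were 3.5 to 3.6 in miR-29 and 3.51 to 3.6 in control arrays. Cnn1, a smooth-muscle calponin, rose by 1.34 (SE 0.0637), and Myh11, a smooth-muscle myosin, by 1.61 (SE 0.124; 0.55 after normexp). Col1a2, a collagen chain, fell by 2.27 (SE 0.0522). Of 11 microglia markers 4 were tested, with 2 lower (50%) and 1 higher (25%). With 1 array left out, 1 to 3 were lower and 0 to 1 higher. Those 4 were Csf1r, P2ry12, Tmem119 and C1qb, and Tmem119, with means of 1.66 in miR-29 and 2.09 in control arrays, fell by 0.43 (SE 0.0688; −0.68 with spike-in scaling). Aif1, Cx3cr1, Ptprc, Trem2, C1qa and C1qc were well above background on 0 arrays. Of 9 endothelial markers 5 were tested, 2 higher (40%; 1 to 2 with 1 array left out) and 2 lower (40%). Tek was well above background on 0 arrays. Of 15 cell cycle genes tested, 12 fell (80%) and 1 rose (6.67%), and with spike-in scaling 12 fell and 0 rose. Their mean levels were −0.67 to −0.53 in miR-29 and 0.28 to 0.37 in control arrays. Ccna2, a cyclin of S phase, fell by 1.86 (SE 0.0665) and Mki67, a marker of dividing cells, by 1.40 (SE 0.0894). The part of these marker differences in the differences of the neuronal genes was not tested.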

How the data were processed

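Per the file headers, Agilent Feature Extraction made the spot intensity values (version 10.7 per the submitters' processing notes), with local background already subtracted, and the flags for well above background. In the deposited series table each array holds this intensity, linear and not centred, times a constant (2.627 to 3.427) whose rule is unknown here. The table's medians were 149.3, 155.4 and 148.8 for miR-29 and 146.3, 164.8 and 162.2 for control. There were 0 columns of other samples.

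Log2 processed signal minus the 75th percentile of the array was used, without control spots and spots flagged as outliers. Accessions matched 1 symbol for 26933 of 41174 probes, several for 0 and none for 14241 (RefSeq table, GRCm38.p6). Probes kept numbered 26428. Each gene was read by the brightest of its kept probes. Of 19741 genes and transcripts tested, 13717 had a symbol. Groups of 3 arrays were compared with lmFit and eBayes in limma 3.58.1 (R 4.3.3), two-sided, Benjamini-Hochberg, threshold 0.05; 3 against 3 allows no exact permutation p below 0.1. The number of arrays limits the precision. The procedure was tested on simulated data.

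The neuronal genes and the other lists were chosen with earlier results of these data known. Every tested neuronal gene is described. Array values are given for those past the threshold with a log2 difference of at least 0.5 and for those whose probes disagree. From each other list up to 4 genes are taken, the largest differences past the threshold without overlap, and Rest, Rcor1, Ptbp1, Ptbp2, Gfap, Slc1a3, Aldh1l1 and Aqp4 in any case; some genes the rule takes are not reported here. Alternatives were normexp (offset 50), quantile, median and spike-in scaling, the deposited table, other filters, probe rules and variance models, blocks for slide and replicate number, and each array left out. Normexp took the median spot signal where the mean had been planned, since the files used here hold the median.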

Additional observations from a re-analysis of the deposited data

How the results depend on the processing

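Of the 25 neuronal genes past the threshold, 18 kept call and direction in each of the 18 settings in which they were tested (17 for Nefh). Spike-in scaling moved most: 7601 genes and transcripts fell and 3017 rose (4487 and 6974 otherwise), the median of the neuronal genes went from 0.31 to 0.0552, and calls of higher genes in the other lists went from 78 to 43. Testing every kept probe gave 118 such calls, since it tests more probes. With slide as a block the median of the neuronal genes was 0.43. Signs turned for Dcx (−0.0720), Dlx2 (−0.0722) and Syt1 (−0.0425) with spike-in scaling. Rbfox3 turned after normexp (0.0310) and ranged from −0.31 to 0.0243 with 1 array left out, positive without miR-29 replicate 1 or control replicate 2. Syn1 turned with the mean of its probes (0.325, adjusted p = 0.0494), with slide as a block and within slide 1 (0.0732), and ranged from −0.249 to 0.0325 with 1 array left out, positive without control replicate 2. Syn2 turned with the mean of its probes (0.0438, adjusted p = 0.828), and Syp with slide as a block and within slide 1 (0.0404). Detection by the other flag of the files (positive and significant) kept 49 of 56 probes, not 40. With 1 array left out, 16 to 18 neuronal genes rose and 6 to 8 fell, with a median of 0.23 to 0.37; 5672 to 7424 of all tested rose and 3674 to 5728 fell. The deviations of same-numbered arrays correlated at 0.13, 0.09 and 0.25, so the numbers were not taken as pairs, although every array correlated best with its own number. With the replicate block 18 neuronal genes rose and 8 fell (Scg2, adjusted p = 0.0149), Rest passed (adjusted p = 0.0172), and over all tested 7000 rose and 4524 fell. Dim probes limit the values of genes that lie near background in at least 1 group. Among these are Ddc, Slc17a6, Slc17a7, Nefh, the Elavl genes, Dcx, Syp, Syt1 and Syt4.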
